A study of Homo sapiens with 8 samples.

Results

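Genes named ZNF and a number that gave a clear signal in U2OS cells were followed through depletion of CDK9. The members were selected on their mean log2 signal: each ZNF symbol that is the single annotation of a probe set was represented by its highest-mean probe set, and a mean of 8 or more over all 8 arrays was required. Of 494 ZNF genes among the 18417 genes measured, 99 met the rule and 395 lay below it. RefSeq lists 93 of the 99 as protein coding, 3 as pseudogenes and 3 as lncRNAs, since the symbol rule also takes names such as ZNF271P and ZNF407-AS1. The levels are therefore a description. The rule itself uses no difference between the groups, although the gene family was chosen with earlier results of these data known.

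U2OS is a human osteosarcoma cell line, spelled U20S in the labels. In one group 4 cultures received siRNA against CDK9 and in the other 4 control cultures received a nonspecific siRNA, both at 10 nM, and RNA was taken 72 h later for Affymetrix human gene arrays. All cultures were transfected, and the design text calls the 4 cultures of a group biological replicates. In such a bulk measurement, fewer cells that express a gene and less RNA per cell cannot be told apart. CDK9 itself was lower with its siRNA (log2 difference -1.82 ± 0.05 SE, n = 4 per group, limma adjusted p = 2.17e-07). Replicate 1 of both groups was on a lower scale, with array medians of 5.85 for CDK9 siRNA and 5.8 for nonspecific siRNA, against 6.99 to 7.04 on the other 6 arrays. The pair of replicate 1 (array set 1) and replicates 2 to 4 (array set 2) were therefore kept apart as blocks. The mesenchymal markers VIM, SPARC, COL1A1 and RUNX2 had means of 8.28 or more and the bone enzyme ALPL 6.01, while CDH1, EPCAM, KRT5, PECAM1 and PTPRC, which mark other lineages, lay between 4.16 and 6.10. VIM (adjusted p = 0.0323, 0.0808 when paired by replicate number), COL1A1 and RUNX2 fell with CDK9 siRNA. EPCAM rose by 0.32 (adjusted p = 0.0366, 0.0841 when paired by replicate number). The summed log2 level of the 5 other-lineage markers was 28.2 to 28.8 on CDK9 siRNA arrays and 27.9 to 28.7 on nonspecific siRNA arrays of set 2. For the 5 mesenchymal markers the sum was 49.0 to 49.2 with CDK9 siRNA and 50.2 to 50.6 with nonspecific siRNA in set 2, without overlap, and 40.7 against 42.8 in set 1. The part of these markers in the ZNF differences was not tested.

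C2H2 zinc finger proteins are the largest family of human transcription factors, and arrays of their fingers read DNA sequence. Many ZNF proteins carry a KRAB domain, which binds the corepressor TRIM28 and through it brings the histone methyltransferase SETDB1 and heterochromatin proteins to the bound site, often a transposable element. Others lack KRAB and act at promoters, in chromatin complexes, or on RNA. CDK9 is the kinase of P-TEFb, whose activity lets RNA polymerase II leave its pause and elongate.

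Expressed ZNF genes were more often lower than higher after CDK9 silencing, by small amounts. Of the 99 members, 18 fell and 4 rose (limma with the array set as a block, adjusted p under 0.05, corrected over all 18417 genes). That is 18.2% lower, where 7.47% of all genes tested were lower, and 4.04% higher, where 6.73% of all genes were higher. ZNF131, ZNF358 and ZNF362 fell furthest, to 69.9%, 74.5% and 74.9% of the control signal, and ZNF367 and ZNF33B rose furthest, 1.51-fold and 1.40-fold. The median log2 difference of the members was -0.06, and that of all genes was -0.00. Passing or not, 74 of the 99 members were below 0. Of the 22 that passed, 5 of the falls and 2 of the rises exceeded a 1.25-fold change. These are 5.05% and 2.02% of the members, where 3.23% and 3.05% of all genes, and 4.39% and 4.32% of other genes with a mean of 8 or more, did so. The sample titles number the cultures but state no pairing. When replicates were paired by number, 13 members were lower and 3 higher, where 4.75% and 4.41% of all genes were. In array set 2 alone, 19 were lower and 3 higher, where 8.57% and 9.52% of all genes were.

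**Figure D1:**
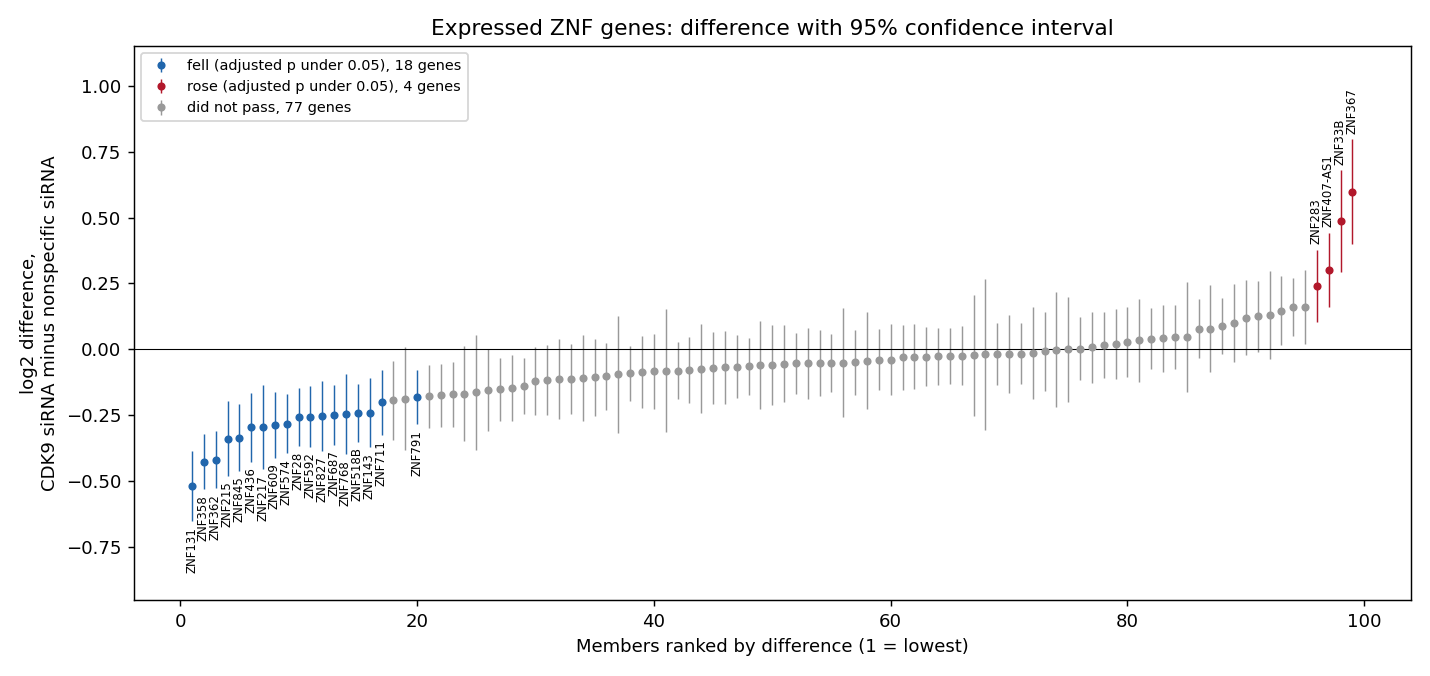
Log2 difference (vertical axis, CDK9 siRNA minus nonspecific siRNA) of the 99 members in rank order (horizontal axis), with 95% confidence intervals from limma. The 18 genes that fell are blue, the 4 that rose are red and the 77 that did not pass are grey, and most grey points lie below 0.

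Well-expressed genes pass more often than dim ones, so the members were set beside other genes of equal level. Among the 7062 other genes with a mean of 8 or more, 11.5% fell and 10.9% rose. Weighted to the members' levels, the shares of these other genes were 12.6% lower and 10.0% higher, and their median difference was -0.02. In either direction 22.2% of the members and 22.4% of the other genes passed, while 81.8% of the members' calls were lower, against 51.2% for the other genes. The 395 ZNF genes with a mean under 8 had 37 lower (9.37%) and 7 higher (1.77%), with a median of -0.06. These shares describe the lists, and no test between lists was made.

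**Figure D2:**
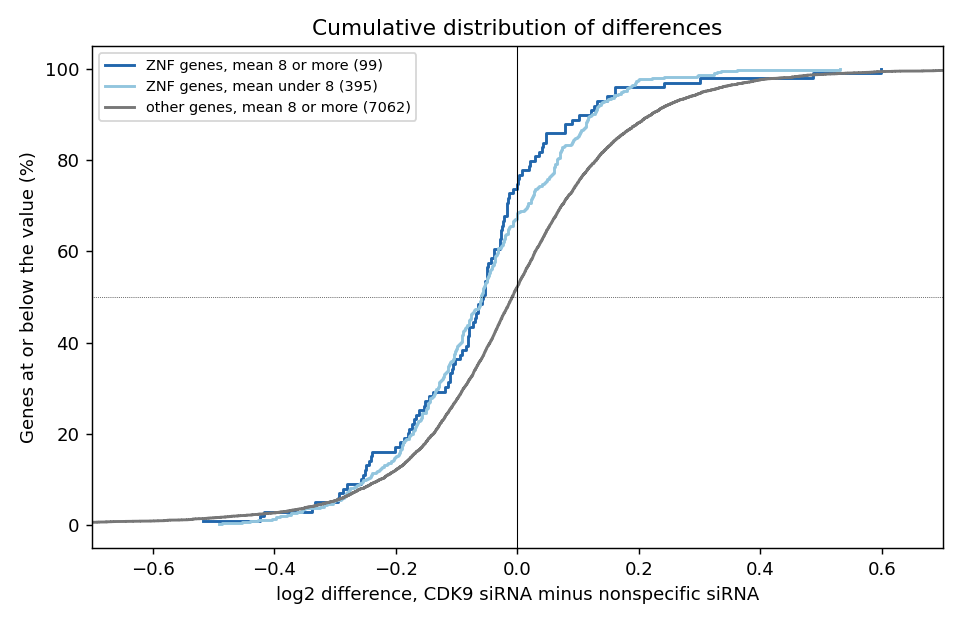
Cumulative share of genes (vertical axis, %) at or below each log2 difference (horizontal axis, CDK9 siRNA minus nonspecific siRNA) for the 99 expressed ZNF genes, the 395 ZNF genes with a mean under 8 and the 7062 other genes with a mean of 8 or more. The medians are -0.06 for the members, -0.06 for the dimmer ZNF genes and -0.01 for the other genes.

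Taken by array set, the members' median difference was -0.12 for set 1 and -0.05 for set 2, while that of the other genes with a mean of 8 or more was -0.06 and 0.01. All 18 members that fell and all 4 that rose had the same direction in both sets, which the fit over both sets favours. An interaction of group with array set passed in limma for 0 members (smallest adjusted p = 0.0728, for ZNF703) and for 2.14% of all genes. On set 2 the arrays of the groups did not overlap, with set 1 differing the same way, for 28 members that were lower and 9 that were higher. Over all genes 13.8% were lower and 11.5% higher by that measure, and among the other genes with a mean of 8 or more 21.8% and 18.8%, beside 28.3% and 9.09% of the members. Across the 99 members the differences in set 1 and set 2 correlated at r = 0.468, and at r = 0.550 across the 7062 other genes, as a description only, since genes share their arrays.

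**Figure D3:**
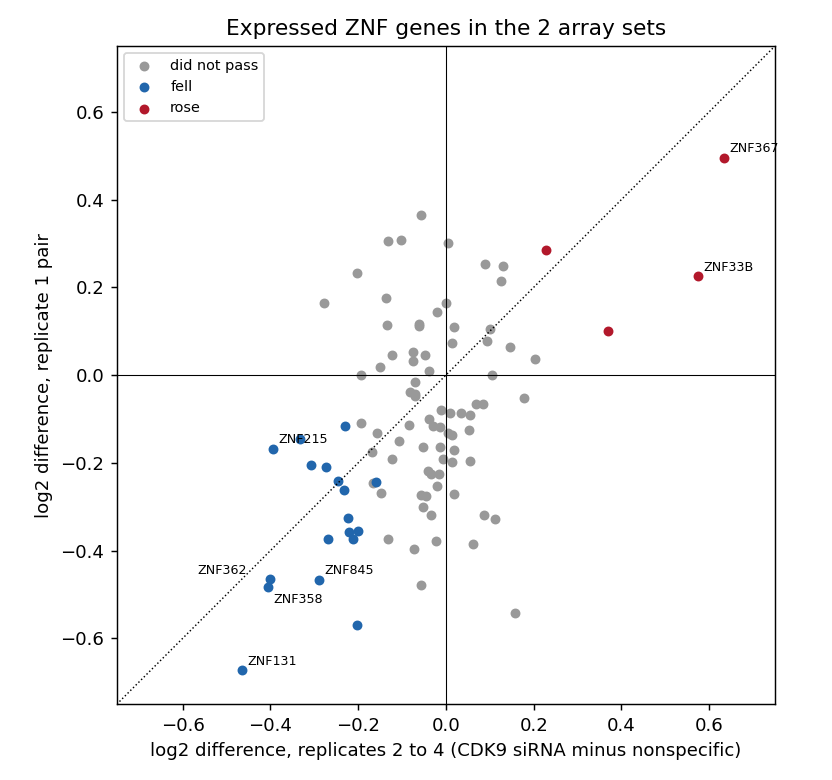
Log2 difference of each of the 99 members in array set 2 (replicates 2 to 4) and in array set 1 (the replicate 1 pair), both CDK9 siRNA minus nonspecific siRNA. Blue points fell, red points rose and grey points did not pass, and all blue points are below 0 and all red points above 0 in both sets.

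ZNF131, a BTB domain zinc finger protein, had the largest fall. Its probe set (8105136) read 8.15, 9.52, 9.45 and 9.61 with CDK9 siRNA, against 8.83, 9.98, 9.98 and 10.01 with nonspecific siRNA, in the order of replicates 1 to 4. Each CDK9 siRNA array lay below the controls of its set (log2 difference -0.52 ± 0.06 SE, adjusted p = 0.000820, n = 4 per group). ZNF358 (8025179) read 7.31, 9.37, 9.40 and 9.40 with CDK9 siRNA, against 7.79, 9.82, 9.81 and 9.76 with nonspecific siRNA. It had the smallest adjusted p of the members (-0.42 ± 0.05 SE, adjusted p = 0.000676), and its groups did not overlap within a set. ZNF362 (7899870) read 6.37, 8.69, 8.61 and 8.60 with CDK9 siRNA, against 6.84, 9.06, 9.02 and 9.03 with nonspecific siRNA. This close relative of the DNA-binding factor ZNF384 fell by 0.42 ± 0.05 (SE, adjusted p = 0.000826), again without overlap. ZNF384 differed by -0.05 (95% confidence interval -0.16 to 0.06, adjusted p = 0.566) and is named, after its value was seen, for that kinship.

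ZNF367, a zinc finger gene also known as ZFF29, had the largest rise. Its probe set (8162601) read 8.34, 9.02, 9.41 and 9.40 with CDK9 siRNA, against 7.85, 8.63, 8.65 and 8.66 with nonspecific siRNA. The CDK9 siRNA arrays were higher in both sets, with replicate 2 the lowest of theirs in set 2 (0.60 ± 0.09 SE, adjusted p = 0.00264). ZNF33B, a KRAB gene, had a probe set (7933139) at 6.74, 8.69, 8.84 and 8.93 with CDK9 siRNA, against 6.51, 8.22, 8.16 and 8.36 with nonspecific siRNA. It rose by 0.49 ± 0.09 (SE, adjusted p = 0.00608), by 0.23 in set 1 and 0.57 in set 2. Its near-identical relative ZNF33A, with a mean of 7.48 and named after its value was seen, rose by 0.33 (adjusted p = 0.0206). The pair can share labelled RNA on the array, so the values are uncertain as separate measurements. ZNF407-AS1, listed as an antisense RNA of ZNF407, read 7.62, 8.91, 8.90 and 8.97 with CDK9 siRNA, against 7.52, 8.62, 8.5 and 8.56 with nonspecific siRNA. The groups did not overlap within a set (0.30 ± 0.06 SE, adjusted p = 0.0128). ZNF283, another KRAB gene, read 8.59, 8.81, 8.83 and 8.96 with CDK9 siRNA, against 8.30, 8.54, 8.73 and 8.65 with nonspecific siRNA. Its rise was the smallest of the 4 (0.24 ± 0.06 SE, adjusted p = 0.0295, 0.0528 when paired by replicate number). The call of ZNF283 was lost without CDK9 siRNA replicate 1, 3 or 4 (0.0586, 0.0575 and 0.0726) or nonspecific siRNA replicate 1, 2 or 4 (0.0586, 0.0868 and 0.0722), these being adjusted p-values.

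**Figure D4:**
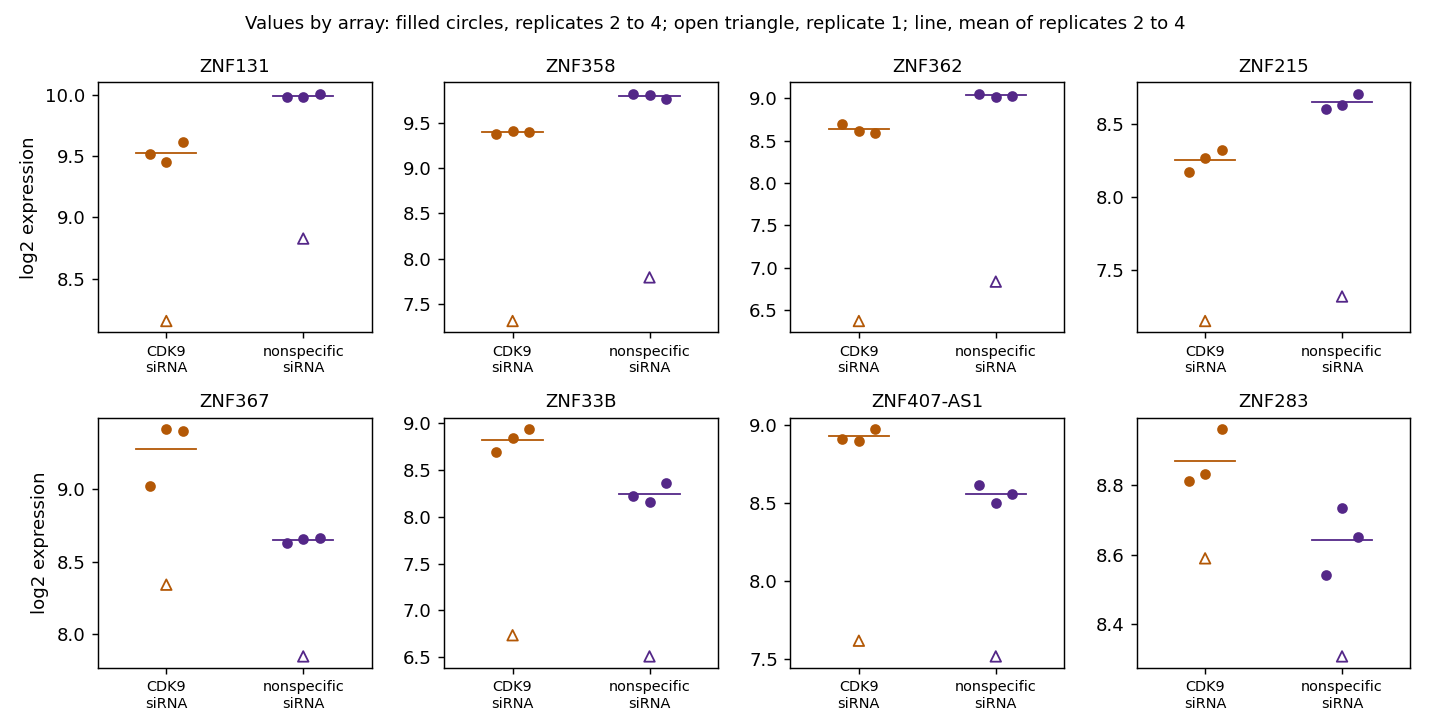
Log2 expression (vertical axes) of 4 members that fell (upper row) and the 4 that rose (lower row) in each array, with CDK9 siRNA left of nonspecific siRNA. Filled circles are replicates 2 to 4 with their mean as a line and open triangles are replicate 1, and in each panel the circles of the groups do not overlap and the triangles differ the same way.

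The promoters of the 3 members that fell furthest and of the largest rise are shown so that start regions of genes that moved in opposite directions can be compared. They are RefSeq windows from 250 bases before to 50 after the start, on GRCh38.p14, at chr5:43121211-43121510 (plus strand) for ZNF131, chr19:7515853-7516152 (plus strand) for ZNF358, chr1:33256242-33256541 (plus strand) for ZNF362 and chr9:96418321-96418620 (minus strand) for ZNF367, printed along the gene. Capitals mark matches on either strand to 5 motifs, which may overlap each other: GGGCGG for the GC box of SP factors, TATAAA for the TATA box, CCGGAAG for ETS factors, AAGATGGC for YY1 and TTTCGCGC for E2F.
ZNF131: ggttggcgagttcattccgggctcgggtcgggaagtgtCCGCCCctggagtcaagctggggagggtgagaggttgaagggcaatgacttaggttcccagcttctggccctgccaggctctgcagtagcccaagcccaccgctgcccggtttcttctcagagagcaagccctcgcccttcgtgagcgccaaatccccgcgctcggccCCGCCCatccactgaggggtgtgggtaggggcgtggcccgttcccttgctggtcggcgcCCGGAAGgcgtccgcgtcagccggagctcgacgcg
ZNF358: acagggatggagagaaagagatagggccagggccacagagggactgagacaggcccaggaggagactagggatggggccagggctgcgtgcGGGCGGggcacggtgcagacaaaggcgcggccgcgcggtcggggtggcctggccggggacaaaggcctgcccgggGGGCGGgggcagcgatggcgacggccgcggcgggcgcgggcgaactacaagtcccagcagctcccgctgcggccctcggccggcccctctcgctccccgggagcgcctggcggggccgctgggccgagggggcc
ZNF362: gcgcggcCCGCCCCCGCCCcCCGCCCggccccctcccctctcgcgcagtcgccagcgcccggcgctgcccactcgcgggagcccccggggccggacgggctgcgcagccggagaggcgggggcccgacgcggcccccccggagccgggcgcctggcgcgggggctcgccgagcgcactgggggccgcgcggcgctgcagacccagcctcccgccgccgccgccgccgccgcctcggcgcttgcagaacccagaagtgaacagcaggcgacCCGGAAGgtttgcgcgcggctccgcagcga
ZNF367: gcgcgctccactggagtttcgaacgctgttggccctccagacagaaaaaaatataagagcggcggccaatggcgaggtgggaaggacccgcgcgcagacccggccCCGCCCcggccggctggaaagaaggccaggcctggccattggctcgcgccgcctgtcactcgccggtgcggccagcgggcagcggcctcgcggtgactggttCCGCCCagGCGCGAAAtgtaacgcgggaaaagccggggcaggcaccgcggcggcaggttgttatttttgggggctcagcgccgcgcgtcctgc
The windows hold 26, 32, 51 and 37 CG dinucleotides in the order printed. The GC box was found 2 times in ZNF131, 2 times in ZNF358, 3 times in ZNF362 and 2 times in ZNF367. ZNF131 and ZNF362 also held the ETS motif, and ZNF367 was the 1 member of 82 with the E2F motif. The window of ZNF33B, the next largest rise, is not printed and held 0 matches to the 5 motifs, with 20 CG dinucleotides. Of the 99 members, 82 had a promoter in the table, and 1 start per gene was read. The GC box occurred in 72.0% of these 82 and in 44.6% of all 27305 promoters, and the ETS motif in 41.5% and 10.7%. TATA boxes were found in 4.88% of the members and 11.95% of all promoters, YY1 motifs in 4.88% and 3.03%, and E2F motifs in 1.22% and 0.546%. The members' windows held a median of 24 CG dinucleotides, against 14 over all promoters. All promoters were read without regard to expression, while the members were chosen for their signal. These shares therefore cannot tell ZNF genes from other expressed genes, whose promoters were not read apart. Of the 16 members in the table that fell, 12 had a GC box and 8 an ETS motif, and of the 4 that rose 3 and 2 did. A match is a description of letters and not a bound site.

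Promoter and DNA-binding factors formed one role group, of which 19 of 25 listed genes were members. In it 5 fell and 0 rose in limma, with a median of -0.06, and 2 were lower when replicates were paired by number. Of all genes, 7.47% fell and 6.73% rose, and 4.75% and 4.41% did when paired. Among other genes with a mean of 8 or more, 11.5% fell and 10.9% rose, and 6.88% and 6.84% did when paired. At an unadjusted p under 0.05, 5 of the 19 were lower and 0 higher. At that threshold 14.7% of all genes were lower and 13.3% higher, and among other genes with a mean of 8 or more 21.0% and 19.2%. Besides ZNF131 and ZNF362, the members of this group that fell in limma were ZNF217, ZNF143 and ZNF711. ZNF217, an oncogene amplified in breast cancer whose product works with corepressors, read 7.99, 9.72, 9.64 and 9.69 with CDK9 siRNA, against 8.56, 9.94, 9.86 and 9.86 with nonspecific siRNA. The difference was -0.57 in set 1 and -0.20 in set 2 (-0.29 ± 0.07 SE, adjusted p = 0.0246, 0.0625 when paired by replicate number). Nor did its call hold without CDK9 siRNA replicate 3 (0.0642) or nonspecific siRNA replicate 2 (0.0639). ZNF143, an activator of snRNA and many mRNA promoters, read 7.92, 8.62, 8.72 and 8.58 with CDK9 siRNA, against 8.28, 8.89, 8.86 and 8.77 with nonspecific siRNA. The groups did not overlap within a set (-0.24 ± 0.06 SE, adjusted p = 0.0253, 0.0538 when paired by replicate number). The call was lost without CDK9 siRNA replicate 1, 2 or 4 (0.0524, 0.0592 and 0.0625) or nonspecific siRNA replicate 1, 2 or 3 (0.0524, 0.0747 and 0.0737). ZNF711, an X-linked factor that works with the demethylase PHF8, read 7.97, 9.48, 9.52 and 9.59 with CDK9 siRNA, against 8.09, 9.79, 9.68 and 9.81 with nonspecific siRNA. It fell without overlap (-0.20 ± 0.05 SE, adjusted p = 0.0390, 0.0791 when paired by replicate number), and lost the call without CDK9 siRNA replicate 2, 3 or 4 (0.0994, 0.102 and 0.0566) or nonspecific siRNA replicate 2, 3 or 4 (0.109, 0.0684 and 0.120). Of the members of this group that did not pass, ZNF410, which activates the gene of the remodeller CHD4, differed by -0.11 (95% confidence interval -0.24 to 0.02, adjusted p = 0.264) and is named after its value was seen.

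Partners of chromatin complexes had 12 members among 13 listed genes, 4 of which fell and 0 rose in limma, and the median was -0.12. When replicates were paired by number, 3 were lower and 0 higher. Of all genes, 7.47% fell and 6.73% rose, and 4.75% and 4.41% did when paired. Among other genes with a mean of 8 or more, 11.5% fell and 10.9% rose, and 6.88% and 6.84% did when paired. At an unadjusted p under 0.05, 5 of the 12 were lower and 0 higher. Beside them stand the same 14.7% and 13.3% of all genes, and 21.0% and 19.2% of other genes with a mean of 8 or more. ZNF592 and ZNF687 belong, with ZNF532, to a module that joins the chromatin reader ZMYND8. ZNF592 read 7.88, 9.13, 9.11 and 9.18 with CDK9 siRNA, against 8.23, 9.33, 9.41 and 9.34 with nonspecific siRNA (-0.25 ± 0.05 SE, adjusted p = 0.0109). ZNF687 read 7.0, 8.21, 8.23 and 8.27 with CDK9 siRNA, against 7.32, 8.52, 8.44 and 8.42 with nonspecific siRNA (-0.25 ± 0.05 SE, adjusted p = 0.0111). Neither gene's groups overlapped within a set. ZNF532 differed by -0.07 (95% confidence interval -0.21 to 0.07, adjusted p = 0.512) and ZMYND8 by -0.01 (adjusted p = 0.975), both named after their values were seen. ZNF518B, a partner of the H3K9 methyltransferase EHMT2, read 8.66, 9.69, 9.68 and 9.67 with CDK9 siRNA, against 8.92, 9.85, 9.97 and 9.92 with nonspecific siRNA (-0.24 ± 0.05 SE, adjusted p = 0.0111). It too was lower on every CDK9 siRNA array than on the controls of its set. ZNF827, which brings the NuRD complex to telomeres in cells that, like U2OS, maintain telomeres without telomerase, read 7.28, 8.66, 8.56 and 8.63 with CDK9 siRNA, against 7.65, 8.75, 8.82 and 8.91 with nonspecific siRNA. It fell by 0.25 ± 0.06 (SE, adjusted p = 0.0211, 0.0559 when paired by replicate number), and the call was lost without CDK9 siRNA replicate 3 (0.0640) or nonspecific siRNA replicate 3 or 4 (0.0563 and 0.0716).

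Members that act on RNA, ribosomes or the spindle were 7 of 14 listed genes. In limma 0 fell and 0 rose, while 1 was lower (ZNF326) and 1 higher (ZNF346) of the 7 at an unadjusted p under 0.05, both named after their values were seen. Over all genes 14.7% were lower and 13.3% higher at that threshold, and among other genes with a mean of 8 or more 21.0% and 19.2%. By adjusted p, 7.47% of all genes fell and 6.73% rose, and 11.5% and 10.9% of those other genes. ZNF326, a subunit of the splicing-linked DBIRD complex, read 7.98, 9.18, 9.25 and 9.36 with CDK9 siRNA, against 8.35, 9.34, 9.37 and 9.47 with nonspecific siRNA (-0.19 ± 0.07 SE, adjusted p = 0.0909). In set 2 the groups overlapped, since replicate 4 with CDK9 siRNA lay above replicate 2 with nonspecific siRNA. ZNF346, a binder of double-stranded RNA, was at 0.16 (adjusted p = 0.0601). ZNF207, a spindle protein that binds the checkpoint factor BUB3, differed by -0.09 (95% confidence interval -0.19 to 0.01, adjusted p = 0.239).

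Outside the role groups were 61 members, with 9 lower (14.8%) and 4 higher (6.56%) and a median of -0.05. Over all genes 7.47% were lower and 6.73% higher. Other genes weighted to the levels of all 99 members had 12.6% lower and 10.0% higher. ZNF215, a SCAN and KRAB domain gene, read 7.15, 8.17, 8.27 and 8.32 with CDK9 siRNA, against 7.32, 8.60, 8.63 and 8.70 with nonspecific siRNA (-0.34 ± 0.06 SE, adjusted p = 0.00778). ZNF845, a KRAB gene, read 7.29, 8.59, 8.60 and 8.69 with CDK9 siRNA, against 7.76, 8.86, 8.94 and 8.95 with nonspecific siRNA (-0.33 ± 0.06 SE, adjusted p = 0.00488). In both genes each CDK9 siRNA array lay below the controls of its set. The KRAB genes ZNF436 and ZNF28 fell by 0.30 (adjusted p = 0.0101) and 0.26 (adjusted p = 0.00851). ZNF28 and ZNF845 have close relatives on chromosome 19, so their probe sets are uncertain. ZNF609, which in mouse works with the cohesin loader NIPBL, fell by 0.29 (adjusted p = 0.00921) and ZNF574 by 0.28 (adjusted p = 0.00635). ZNF768 and ZNF791 complete the 18 falls. ZNF768 read 7.84, 8.82, 8.90 and 9.09 with CDK9 siRNA, against 8.08, 9.19, 9.11 and 9.25 with nonspecific siRNA (-0.24 ± 0.07 SE, adjusted p = 0.0421). Its call was lost without CDK9 siRNA replicate 1, 2 or 3 (0.0719, 0.104 and 0.110) or nonspecific siRNA replicate 1, 2, 3 or 4 (0.0719, 0.0986, 0.0687 and 0.121). ZNF791, a KRAB gene, read 7.14, 8.45, 8.48 and 8.45 with CDK9 siRNA, against 7.38, 8.62, 8.61 and 8.63 with nonspecific siRNA (-0.18 ± 0.05 SE, adjusted p = 0.0304, 0.0876 when paired by replicate number). It lost the call without CDK9 siRNA replicate 2, 3 or 4 (0.0662, 0.0591 and 0.0640) or nonspecific siRNA replicate 2, 3 or 4 (0.0746, 0.0812 and 0.0876).

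The 77 members that did not pass were measured closely enough to bound their change. For 73 of them the 95% confidence interval lay within 1.25-fold in both directions, and the median half-width of the interval over all members was 0.13 on the log2 scale. Their differences ranged from -0.19 for ZNF326 to 0.16 for ZNF271P. The 5 members with the highest mean signal, ZNF207 at 11.06, ZNF512 at 10.10, ZNF106 at 10.10, ZNF146 at 10.08 and ZNF462 at 9.93, were all among them, although signals of different probe sets do not rank transcripts. Just inside the level of 8 were ZNF436 (8.01), ZNF836 (8.01) and ZNF621 (8.02), and just outside it ZNF425 (7.98), ZNF689 (7.97) and ZNF316 (7.96). In array set 1, whose scale is lower, 61 of the 99 members averaged under 8. ZNF257 and ZNF75A had a second probe set, with differences of 0.01 and -0.00 beside -0.18 and 0.04 for the kept ones. The second probe set of ZNF257 had a mean of 3.71, close to the lowest values of the arrays, and differences of 0.40 in set 1 and -0.12 in set 2, so its value says little.

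RefSeq places 28 members on chromosome 19, home of large ZNF clusters, of which 5 fell and 1 rose (median -0.05), and 71 elsewhere, of which 13 fell and 3 rose (median -0.06). The shares lower were 17.9% and 18.3%, and those higher 3.57% and 4.23%. Over all genes 7.47% fell and 6.73% rose, and among other genes with a mean of 8 or more 11.5% and 10.9%. In 3 pairs both neighbouring genes are members. The differences were -0.24 for ZNF768 and -0.06 for ZNF747, 0.24 for ZNF283 and -0.02 for ZNF404, and -0.16 for ZNF124 and -0.04 for ZNF496, so no pair had both genes past the test. The genes on either side of ZNF131, ANXA2R and NIM1K, were at 0.17 and 0.01 and did not pass. Beside ZNF367, SLC35D2 and HABP4 were at -0.17 and -0.07 and did not pass. Of 38 measured genes that flank a member that passed, 4 passed, all lower, and 2 of these when replicates were paired by number. Over all genes 14.2% passed in either direction and 7.47% were lower, and 4.75% were lower when paired. Beside ZNF687, PI4KB fell by 0.35 (adjusted p = 0.00155), and beside ZNF217, TSHZ2 fell by 0.75 (adjusted p = 0.00132). Beside ZNF362, TRIM62 fell by 0.22 (adjusted p = 0.0151, 0.0528 when paired). Beside ZNF33B, which rose, BMS1 fell by 0.17 (adjusted p = 0.0439, 0.112 when paired). These flanking genes are named after their values were seen.

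Genes of the KRAB repression machinery were read beside the members. Of 25 measured genes, 7 fell and 1 rose, with a median of -0.07, and 3 were lower and 1 higher when replicates were paired by number. Over all genes 7.47% fell and 6.73% rose, and 4.75% and 4.41% did when paired. Among other genes with a mean of 8 or more, as most of the list are, 11.5% fell and 10.9% rose. The remodeller CHD4 read 10.97, 11.90, 11.87 and 11.90 with CDK9 siRNA, against 11.26, 12.13, 12.22 and 12.19 with nonspecific siRNA (-0.29 ± 0.05 SE, adjusted p = 0.00427). The H3K9 methyltransferases EHMT1 and EHMT2 fell by 0.27 and 0.29 (adjusted p = 0.00664 and 0.0118). CBX5, heterochromatin protein HP1 alpha, was the gene that rose. It read 11.07, 11.73, 11.71 and 11.76 with CDK9 siRNA, against 10.73, 11.43, 11.49 and 11.46 with nonspecific siRNA (0.29 ± 0.05 SE, adjusted p = 0.00406). CHD3 fell by 0.25 (adjusted p = 0.0182, 0.0588 when paired by replicate number). TRIM28, the corepressor that KRAB domains bind, read 9.43, 9.79, 9.91 and 9.90 with CDK9 siRNA, against 9.65, 10.03, 10.01 and 10.04 with nonspecific siRNA. Its fall was narrow (-0.17 ± 0.05 SE, adjusted p = 0.0485) and did not pass when paired by replicate number (0.106) or without any 1 of the 8 arrays (up to 0.123). MORC2 (-0.19, adjusted p = 0.0400) and DNMT3A (-0.21, adjusted p = 0.0459) did not pass when paired by number (0.100 and 0.110) or without any 1 of replicates 2 to 4 of either group (up to 0.124 and 0.142). SETDB1 differed by -0.06 (adjusted p = 0.509) and did not pass.

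Other zinc finger symbol families with a mean of 8 or more were small. Beside them, 7.47% of all genes fell and 6.73% rose in limma, and 4.75% and 4.41% when paired by number. Of all other genes with a mean of 8 or more, 11.5% fell and 10.9% rose. At an unadjusted p under 0.05, 14.7% of all genes were lower and 13.3% higher, and 21.0% and 19.2% of those with a mean of 8 or more. Of 14 ZBTB genes, which pair fingers with a BTB domain as ZNF131 does, 4 fell and 0 rose in limma (median -0.13; 6 lower and 0 higher at an unadjusted p under 0.05), and 2 were lower when replicates were paired by number. Among 4 ZSCAN and ZKSCAN genes 0 passed in limma, with 1 lower and 0 higher at an unadjusted p under 0.05. Among 4 genes whose symbol begins with ZFP and a digit 1 fell, ZFP36L1, which is an mRNA decay factor with another kind of finger, and 0 were lower when paired by number.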

How the data were processed

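Human gene arrays of 8 U2OS cultures were analysed. The deposited table holds log2 expression values of 33297 probe sets. The submitters' processing notes name hg19, RMA, limma and Affymetrix Expression Console 1.1, with no role or order. The platform annotation gave 1 symbol for 19460 probe sets, and the probe set with the highest mean was kept for each of 18417 genes; 41 probe sets naming a ZNF gene among several symbols were not used. The group difference was fitted with limma (version 3.58.1, R version 4.3.3; two-sided, Benjamini-Hochberg correction over all genes), and the array set (replicate 1 against replicates 2 to 4) was a block. Tables came from pandas 2.3.3 and numpy 2.4.6 on Python 3.11.15, and plots from matplotlib 3.10.9. The fit was also run on simulated data with independent noise on each array, which cannot show whether cultures were paired.

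Members, lists, block and motifs were chosen with earlier results of these data known. Named genes were the 10 largest rises and falls that passed, the 5 highest signals, 3 genes on each side of the level of 8, and members and KRAB list genes that passed, with exceptions stated. Alternatives were no block, pairing by replicate number, set 2 alone, other scalings, filters, probe set rules, a variance trend, other levels and leaving out each array. Deviations from the group means correlated at 0.822, 0.537, 0.494 and 0.607 in same-numbered pairs 1 to 4, all over 0.1. These values include the lower scale of replicate 1 in both groups, so they cannot tell whether cultures were paired. Within set 2 alone, same-numbered pairs 2 to 4 gave 0.108, -0.0105 and 0.170, and pairs of unlike number gave -0.175 to 0.0762. The replicate block is therefore an alternative fit and not an established pairing. A planned split by protein domain was not run, since no protein sequences were used here. The number of arrays limits the precision. Promoters are RefSeq's, of GRCh38.p14.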

Additional observations from a re-analysis of the deposited data

Results flagged for a closer look

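Each group of 4 arrays was checked for 1 array far from the other 3, after the difference between array sets was taken off, in 41 named genes, which makes 82 groups. In 3 of the 82 groups the gap of an extreme array to its nearest neighbour, as a share of the group's range, passed the limit. For 4 independent values chance gives about 1 in 20 groups, and 3 of 82 is below that rate. Taking off the set difference ties the replicate 1 values of the groups to each other, so the rate is only a guide. For ZNF836, replicate 3 of the CDK9 siRNA group was low (deposited value 8.19, share 0.948). For ZNF689, which lies just under the level of 8, replicate 4 of the nonspecific siRNA group was low (8.14, share 0.891). For ZNF621, replicate 3 of the nonspecific siRNA group was high (8.35, share 0.871). The adjusted p between CDK9 siRNA and nonspecific siRNA was 0.385 for ZNF836, 0.943 for ZNF689 and 0.804 for ZNF621.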

How the results depend on the processing

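Without a block, 0 members were higher and 0 lower in limma, and 0 had an unadjusted p under 0.05 (smallest 0.113, for ZNF367), because the difference between array sets enters that fit's error; the log2 differences are the same. Over all genes that fit passed 0, while 28 were higher and 23 lower before adjustment. With the replicate block, 3 members were higher and 13 lower, where 4.41% and 4.75% of all genes were. The calls lost were ZNF143, ZNF217, ZNF283, ZNF711, ZNF791 and ZNF827. Leaving out 1 array at a time gave 3 to 4 higher, 13 to 19 lower and a median of -0.08 to -0.05. In these fits 3.88% to 9.52% of all genes were higher and 4.38% to 8.57% lower. Of the 22 calls, 15 (12 lower and 3 higher) held in all 15 alternatives of the fit other than the one without a block. Of these, 13 are distinct, because leaving out replicate 1 of either group leaves the same fit as array set 2 alone. The mean of a gene's probe sets leaves the values of all 22 called genes unchanged. Only ZNF257 and ZNF75A, which were not called, had a second probe set. With arrays centred on their medians, ZNF711, ZNF768 and ZNF791 did not pass. A level of 7.5 or more took 177 genes, with 4 higher and 28 lower. A level of 8.5 or more took 50, with 2 higher and 9 lower, and the counts change because the number of genes changes. In the alternative chosen after seeing the data, the 93 protein-coding members had 3 higher and 18 lower. The 7.5 and 8.5 levels and this alternative keep the array set as a block. In that fit 6.73% of all genes were higher and 7.47% lower.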
